A study of Mus musculus and Homo sapiens with 12 samples.

Results

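The EGR, NR4A, IER and KLF early genes are 10 genes, most of them for transcription factors, whose RNA can be made within minutes of a signal: EGR1, EGR2, EGR3, NR4A1, NR4A2, NR4A3, IER2, IER3, KLF4 and KLF6. They were taken by gene symbol, compared in capitals, from 1 comparison table for each of 2 models of pancreatic ductal carcinoma. All 10 were listed among the 23201 genes of the mouse table and 9 among the 18190 genes of the human table, and EGR3 of the human model was not analysed here. Each listed member had an adjusted p, so none of those listed was left untested.

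The mouse model compared 3 samples of KPC with 3 of KPC LM2, the second generation of that line taken through liver metastasis. The human model compared 3 samples of PANC1, an established pancreatic carcinoma line, with 3 of PANC1 LM3, the third such generation. All 12 samples are given as wild type, and in every group 500000 cells were put into the spleen on day 1 and tumours in the liver were taken on day 21. The RNA came from those tumours per the labels' protocols, while the titles speak of cells, and the labels used here do not describe the host animals. Each selected line is 1 derivative, so what is particular to that derivative and what comes with liver selection cannot be told apart. The labels name biological replicates without saying whether these were separate animals. Neither table says which group is the numerator of its fold change, so a fold change is called positive or negative by its listed sign, which is tied to no line. Each value is 1 number per gene and comparison, with no value per library, so the depth of each sample is unknown. The level of a gene is its normalised read count averaged over the libraries of both groups, and levels summed to 9106250 in KPC and 15415400 in PANC1. Values after ± are the SE, the standard error that the tables give on the log2 scale, and 95% intervals were computed from it.

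Immediate-early genes are switched on from factors already present in the cell, with no new protein synthesis needed. Growth factor signals reach them through RAS and the kinases MEK and ERK, which act on serum response factor (SRF) and its ETS-family partners, and calcium or cyclic AMP signals reach them through CREB. EGR proteins are zinc finger transcription factors and NR4A proteins are orphan nuclear receptors. KLF4 and KLF6 are Krüppel-like zinc finger factors, and IER2 and IER3 encode small proteins induced by growth signals and stress. Most of their messages are short-lived, and tissue handling is known to induce many of them.

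The start regions of 4 mouse members are shown because they hold letters that SRF or CREB is known to read, and because Egr2 and Nr4a1 were called in KPC while Nr4a2 and Nr4a3 were not. Of the 10 members 7 had an entry among the RefSeq promoters of build GRCm38.p6, another build than the authors' mouse build. Egr1, Egr3 and Ier2 had none. The first 250 bases before each start site were searched on both strands, and the stretches below stop at the first annotated exon. Capitals mark the CArG box, the SRF motif, in Egr2, and in the NR4A genes the core TGACG, or its reverse complement, of the cyclic AMP response element that CREB reads. The full element, TGACGTCA, would count as 2 overlapping cores. Egr2 is chr10:67537316-67537565 (+ strand), Nr4a1 is chr15:101266596-101266845 (+), Nr4a2 is chr2:57124004-57124253 (-) and Nr4a3 is chr4:48045055-48045152 (+).
Egr2: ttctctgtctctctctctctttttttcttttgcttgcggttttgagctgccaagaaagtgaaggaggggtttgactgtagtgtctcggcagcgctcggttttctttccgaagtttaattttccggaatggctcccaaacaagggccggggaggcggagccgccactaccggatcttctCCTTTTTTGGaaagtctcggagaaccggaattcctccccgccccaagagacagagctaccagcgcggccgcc
Nr4a1: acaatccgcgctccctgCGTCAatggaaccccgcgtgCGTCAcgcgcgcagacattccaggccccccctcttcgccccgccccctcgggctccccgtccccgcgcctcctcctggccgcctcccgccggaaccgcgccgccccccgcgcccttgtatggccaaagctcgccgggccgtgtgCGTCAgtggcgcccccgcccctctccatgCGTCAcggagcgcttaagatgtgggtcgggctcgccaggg
Nr4a2: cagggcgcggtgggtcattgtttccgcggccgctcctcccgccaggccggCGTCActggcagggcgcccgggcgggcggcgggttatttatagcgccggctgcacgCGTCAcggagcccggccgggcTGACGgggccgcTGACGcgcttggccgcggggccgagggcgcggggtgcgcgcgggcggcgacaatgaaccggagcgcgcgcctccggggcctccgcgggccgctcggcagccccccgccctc
Nr4a3: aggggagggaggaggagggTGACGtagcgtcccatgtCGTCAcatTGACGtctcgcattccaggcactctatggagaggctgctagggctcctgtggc

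Each of the 3 NR4A windows held 4 cores in its 250 bases, of which 3 are in the shorter stretch printed for Nr4a3. At least 1 was in 17.8% of 32851 mouse windows, and at least 4 in 0.137%. A CArG box was in 1.47% of windows and, of the 7 matched members, only Egr2 had one, in 4 of its 5 annotated start regions. Of those 4, the one printed above has its own box, and the other 3 overlap, share 1 box and also hold 2 cores. The Klf4 window had 1 core, and the Ier3 and Klf6 windows had neither motif. No member window held TGACGTCA, the EGR site GCGTGGGCG or the NR4A site AAAGGTCA, which were in 1.55%, 0.536% and 1.34% of windows. These are matches of letters and not measured binding.

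In KPC, 5 of the 10 members passed the Wald test's adjusted p of 0.05, all with positive fold changes: Egr1, Egr2, Egr3, Nr4a1 and Klf4. In PANC1, 8 of 9 passed, again all positive, and KLF4 was the one that did not. EGR1, EGR2 and NR4A1 were positive past the threshold in both models. Over all tested genes 5.77% were called positive and 4.60% negative in KPC, 10.4% in all. In PANC1 26.0% were positive and 26.5% negative, 52.5% in all, so a call says less there. No member was negative at an unadjusted p under 0.05 in either model, and 6 were positive in KPC and 8 in PANC1. Of all tested genes, 5571 of 20050 in KPC and 10057 of 17838 in PANC1 had such a p with either sign. The median log2 fold change of the members was 0.81 in KPC and 2.51 in PANC1, against -0.08 and -0.002 over all tested genes.

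**Figure D1:**
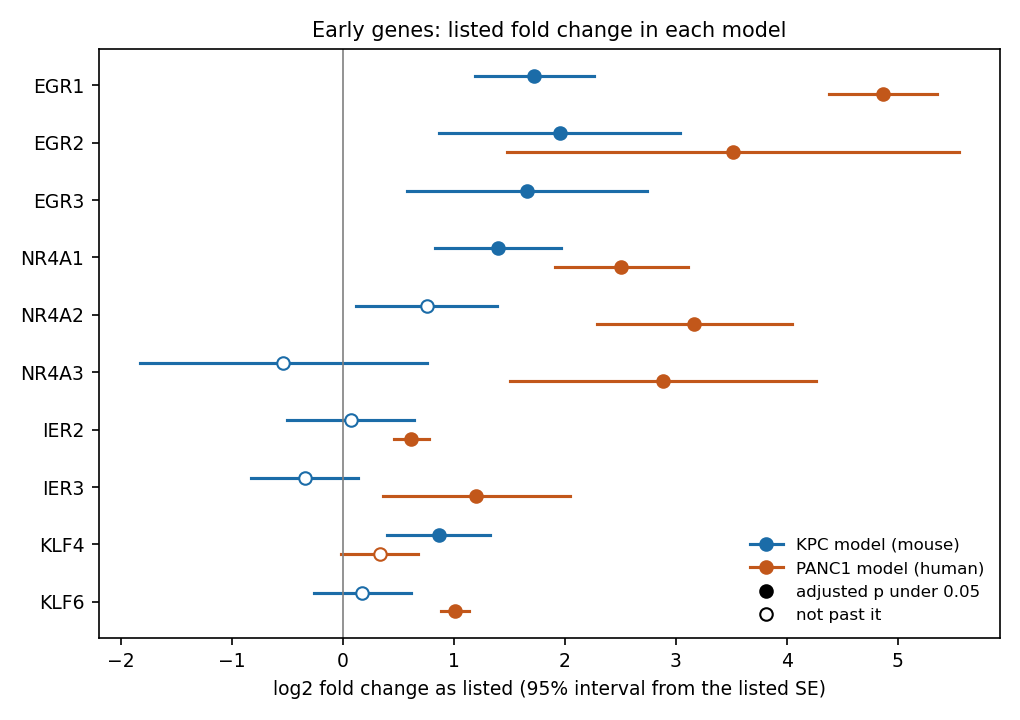
Log2 fold change of each member as listed (x axis), with its 95% interval, in the KPC model (blue) and the PANC1 model (orange); filled points have an adjusted p under 0.05. EGR1 of PANC1 lies farthest right at 4.87, and the intervals of Nr4a3, Ier2, Ier3 and Klf6 of KPC span 0.

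The KPC calls depend on scale and on the reference distribution. Genes at a level of 64 or more had a median log2 fold change of 0.22 in KPC and -0.03 in PANC1, and 10.6% and 32.7% of them were called positive. With KPC recentred on that median, Klf4 and Egr3 were no longer called (Wald test adjusted p = 0.056 and 0.067), and the share of positive calls over all genes went from 55.7% to 23.5%. With the t distribution (4 degrees of freedom) in place of the normal, 0 of the 20050 KPC genes passed. On that distribution 5 members had an unadjusted p under 0.05, as did 2132 of the 20050 genes. In PANC1 the same change ended the calls of EGR2 and IER3 (adjusted p = 0.070 and 0.11 by the Wald statistic on that t distribution).

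Egr1, Egr2 and Egr3 were all called positive in KPC, at close to the same size. EGR1, the founding member of the family and a common readout of ERK activity, was listed by the authors' deposited table for KPC at 1.73 ± 0.27 on the log2 scale, a ratio of 3.31 (95% interval 2.29 to 4.79) between the groups. Its level in the authors' deposited table was 1085, above 90.0% of tested genes, and its adjusted p by the Wald test was 4.37e-08. By Wald statistic it held rank 71 of 20050 KPC genes.

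Egr2, known from Schwann cell myelination and T cell anergy, was listed by the authors' deposited table for KPC at 1.96 ± 0.55 with a level of 37.3 (Wald test adjusted p = 0.0095). Egr3, which is activated by the same kinds of signal, was at 1.66 ± 0.55 with a level of 22.0 in the authors' deposited table (Wald test adjusted p = 0.033). The 95% intervals of the 3 genes overlap, at 1.19 to 2.26 for Egr1, 0.87 to 3.04 for Egr2 and 0.58 to 2.74 for Egr3. Genes of like level had a median of 0.25 beside Egr1, -0.04 beside Egr2 and -0.43 beside Egr3, so Egr2 and Egr3 lay 2.00 and 2.09 above their neighbours in level and Egr1 1.47 above. Like level here means a running window of genes ordered by level.

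In PANC1 the EGR genes had the largest fold changes of the members. EGR1 was listed by the authors' deposited table for PANC1 at 4.87 ± 0.25, a ratio of 29.2 (95% interval 20.8 to 41.0), with a level of 192 (Wald test adjusted p = 7.55e-83). With 3 libraries per group, that mean and that ratio together put the groups at about 372 and 12.7 normalised counts. EGR1 held rank 114 of 17838 genes by Wald statistic. EGR2 was at 3.51 ± 1.04 in the authors' deposited table, but with a level of only 5.52, which puts the lower group under 1 count at about 0.89 (Wald test adjusted p = 0.0018). Its 95% interval ran from 1.48 to 5.55, so its ratio is known only roughly, and a fitted fold against so low a group is no bound. The further family member EGR4 was at 3.74 ± 1.28 in the authors' deposited table for PANC1, also near the floor with a level of 4.07 (Wald test adjusted p = 0.0077), and Egr4 of KPC was not analysed here.

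**Figure D2:**
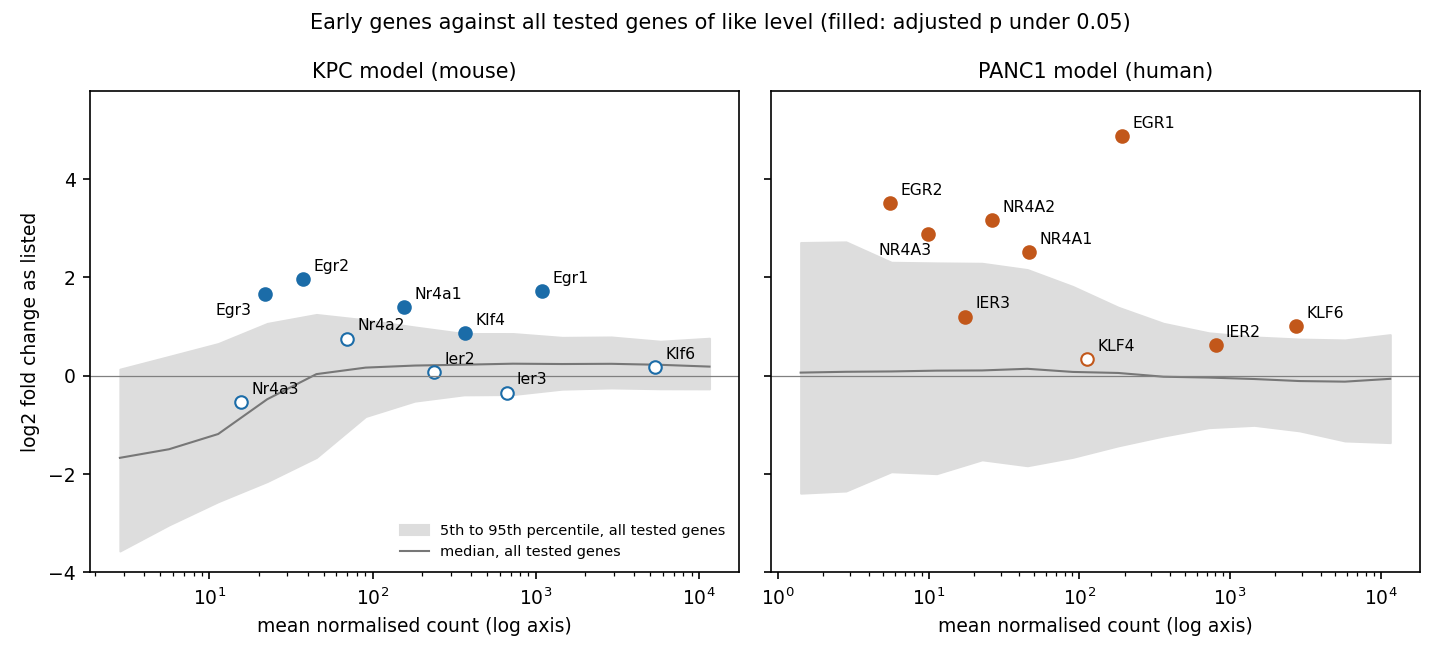
Log2 fold change as listed (y axis) against level (x axis, log scale) for the members in each model, over the 5th to 95th percentile (grey band) and median (grey line) of all tested genes in bins of a doubling in level; filled points have an adjusted p under 0.05. In KPC the grey median falls below 0 at low counts, and Egr1, Egr2, Egr3, Nr4a1 and, at its edge, Klf4 lie above the band; in PANC1 EGR1, EGR2, the NR4A genes and KLF6 lie above it.

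All 3 NR4A genes passed the threshold in PANC1 and 1 of them in KPC. NR4A1, the most studied of these receptors and a gene induced by antigen receptor and growth signals, was called positive in both models. NR4A2, which dopamine neurons need, and NR4A3, its close relative, passed the threshold in PANC1 and not in KPC. The authors' deposited table for KPC gave Nr4a1 at 1.40 ± 0.29 with a level of 155 (Wald test adjusted p = 0.00010), a ratio of 2.63 (95% interval 1.78 to 3.90). Nr4a2 was at 0.76 ± 0.32 with a level of 69.3 in the authors' deposited table, and its adjusted p of 0.11 by the Wald test missed the threshold although its 95% interval of 0.12 to 1.39 lay above 0. Nr4a3 was at -0.54 ± 0.66 in the authors' deposited table with a level of 15.6, and its sign turned to 0.40 once the trend with level was subtracted. The 95% interval of Nr4a3, -1.83 to 0.76, takes in the listed value of Nr4a2, and the interval of Nr4a1 begins above its upper end at 0.83. The libraries are shared between these genes, so their difference was not tested.

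In PANC1, the authors' deposited table gave NR4A1 at 2.51 ± 0.31, NR4A2 at 3.17 ± 0.45 and NR4A3 at 2.89 ± 0.70. Their levels in the authors' deposited table were low, at 46.3, 26.5 and 9.92. These means and ratios put the groups at about 78.9 and 13.8 for NR4A1, 47.7 and 5.31 for NR4A2, and 17.5 and 2.36 for NR4A3. Their 95% intervals overlapped, from 1.91 to 3.11, 2.29 to 4.05 and 1.51 to 4.26, and the Wald test's adjusted p-values were 2.02e-15, 1.10e-11 and 0.00012. Each lay above genes of like level by 2.39, 3.02 and 2.68 on the log2 scale.

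The IER genes were positive in PANC1, at listed values below those of the EGR and NR4A genes, and neither passed the threshold in KPC. IER2 encodes a nuclear protein linked to transcription and IER3 a membrane-associated protein that modulates cell survival and ERK signalling. In KPC, Ier2 was at 0.07 ± 0.29 in the authors' deposited table and turned to -0.15 after recentring, with a 95% interval of -0.50 to 0.64 as listed. Ier3 was at -0.34 ± 0.25 in the authors' deposited table for KPC, with a 95% interval of -0.82 to 0.14. Their levels were 238 and 662 in the authors' deposited table, and these intervals allow ratios of 0.708 to 1.56 and of 0.565 to 1.10. Their SE, 0.291 and 0.246, were above the median of 0.243 among KPC genes at a level of 64 or more. In PANC1, the authors' deposited table gave IER2 at 0.62 ± 0.08 with a level of 802 (Wald test adjusted p = 2.21e-13), a ratio of 1.54. IER3 was at 1.20 ± 0.43 with a level of only 17.5 in the authors' deposited table for PANC1 (Wald test adjusted p = 0.011).

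KLF4 passed the threshold in KPC and KLF6 in PANC1. Klf4, a factor of epithelial differentiation and of reprogramming to pluripotency, was at 0.86 ± 0.24 with a level of 369 in the authors' deposited table for KPC (Wald test adjusted p = 0.0070). Klf6, which has been described as a tumour suppressor, was at 0.17 ± 0.22 in the authors' deposited table for KPC with a level of 5399, and turned to -0.044 after recentring. Its 95% interval was -0.26 to 0.61. In PANC1, KLF4 was at 0.33 ± 0.18 with a level of 112 in the authors' deposited table (Wald test adjusted p = 0.10, 95% interval -0.01 to 0.68). KLF6 was at 1.01 ± 0.06 with a level of 2738 in the authors' deposited table, a ratio of 2.02 known to within 1.85 and 2.20 (Wald test adjusted p = 3.89e-55). Its rank by Wald statistic was 208 of 17838.

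Levels of the mouse members were also set per kilobase of exon, with GENCODE M21 lengths. Klf6 was highest at 1230 normalised counts per kilobase, above 98.9% of genes that have a length. Ier3 followed at 585, Egr1 at 242, Ier2 at 157 and Klf4 at 121. The NR4A genes were lower, at 44.3 for Nr4a1, 17.1 for Nr4a2 and 2.60 for Nr4a3, and Egr2 and Egr3 were at 11.0 and 5.0. The spread over libraries is not listed, so which neighbours in this order differ could not be tested. The 2 highest genes, Klf6 and Ier3, were not called, and whether the size of the fold change follows this order was not tested. Human lengths were not used here.

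As listed, the members' fold changes were more positive in PANC1 than in KPC for 8 of the 9 genes measured in both, and 6 of those differences passed a test of the difference. The tables share no sample, and the test takes both to list their groups in the same order, which neither table states. With the PANC1 order turned, an alternative added after seeing the data, all 9 differences are positive and 7 pass the z test, now with EGR2 and KLF4 and without IER3. EGR1, NR4A1, NR4A2, NR4A3 and KLF6 passed under both orders, NR4A3 with the turned order only narrowly (adjusted p = 0.049 by the z test). It was adjusted over 12777 symbols tested in both, of which 34.9% passed, so a difference between the models is a common finding here. On the log2 scale KPC minus PANC1 was -3.14 ± 0.37 for EGR1, the smallest adjusted p of the members (1.25e-15, z test of the difference). It was -2.41 ± 0.55 for NR4A2 and -3.42 ± 0.96 for NR4A3 (adjusted p = 0.00012 and 0.0021 by the z test). For NR4A1, IER3 and KLF6 it was -1.11 ± 0.42, -1.55 ± 0.49 and -0.84 ± 0.23 (adjusted p = 0.027, 0.0078 and 0.0018 by the z test). With the level trend subtracted in both tables the difference for NR4A3 fell to -2.28 and its adjusted p rose to 0.060 in that test.

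The differences for EGR2, IER2 and KLF4 did not pass. They were -1.56 (95% interval -3.86 to 0.75), -0.55 (-1.14 to 0.05) and 0.53 (-0.05 to 1.11), so a sizeable difference in EGR2 is within its interval. IER2 passed once both tables were recentred (-0.80, adjusted p = 0.030 by the z test) or the level trend was subtracted (-0.85, adjusted p = 0.020). KLF4 was the one member with a higher listed value in KPC. Symbols positive past the threshold in both models, as EGR1, EGR2 and NR4A1 were, made up 2.27% of the 12777.

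**Figure D3:**
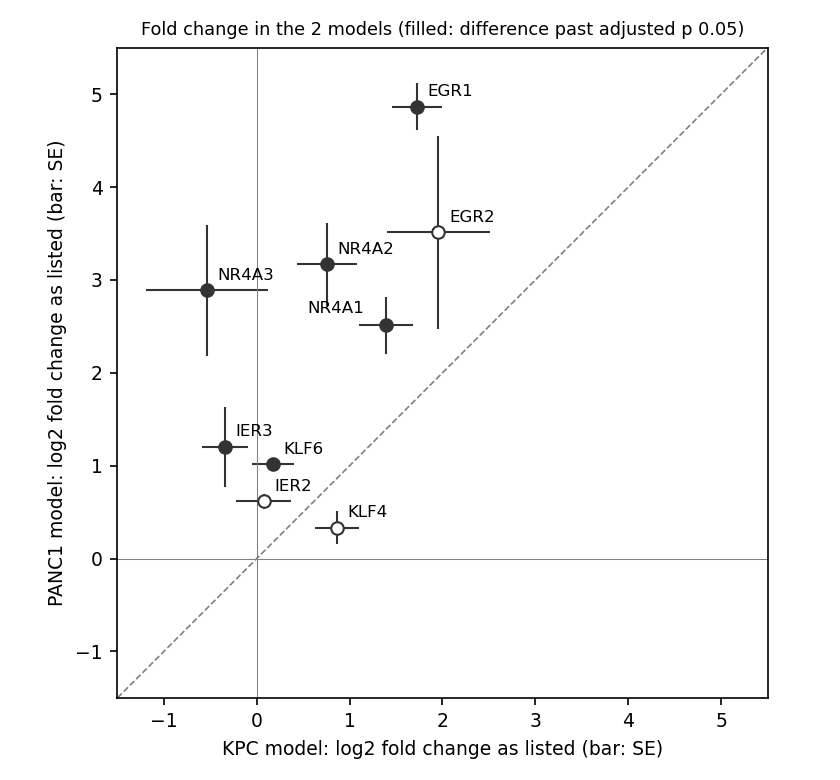
Log2 fold change in the KPC model (x axis) against the PANC1 model (y axis) for the 9 members measured in both, with bars of 1 SE each way and a dashed line of equal values; filled points passed the test of the difference. All but KLF4 lie above the line, and NR4A3 and IER3 have negative listed values in KPC and positive ones in PANC1.

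Of the corepressors of the EGR proteins, NAB2 differed between the models under either order of the groups and NAB1 under 1 of them. NAB2, which EGR factors are known to induce and which binds and restrains them, was at 1.42 ± 0.11 in the authors' deposited table for PANC1 (Wald test adjusted p = 2.04e-36). In KPC, the authors' deposited table gave Nab2 at -0.05 ± 0.27 and a level of 115, with an adjusted p of 0.92 by the Wald test. The difference of -1.47 ± 0.30 passed the z test (adjusted p = 8.45e-06). NAB1 was at -0.22 ± 0.07 in the authors' deposited table for PANC1 and at 0.74 ± 0.29 in that for KPC, where it missed the threshold (Wald test adjusted p = 0.073). Its difference of 0.96 ± 0.30 passed the z test (adjusted p = 0.0058), but with the PANC1 order turned it was 0.53 ± 0.30 and did not (adjusted p = 0.18). The turned difference for NAB2 was 1.37 ± 0.30 (adjusted p = 4.68e-05 by the z test).

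Genes reported as EGR1 targets, NAB2 among them, were called in KPC at about the 10.4% of all tested genes. Of 9 tested, 1 was positive past the threshold and 0 negative, Tgfb1 at 1.03 ± 0.22 in the authors' deposited table. At an unadjusted p under 0.05 the Wald test gave 2 positive and 0 negative, beside 5571 of 20050 tested genes with either sign. In PANC1, 6 of 10 were positive and 3 negative, beside 26.0% and 26.5% of all tested genes. All 10 had a level of 64 or more, and 8023 of the 11301 genes tested at that level were called with either sign. Changes were of both signs in the authors' deposited table for PANC1, with the cyclin gene CCND1 at 1.12 ± 0.05 and the ERK pathway inhibitor gene SPRY4 at 0.91 ± 0.07 against the thrombospondin gene THBS1 at -2.08 ± 0.09 and TGFB1 at -0.70 ± 0.18. TGFB1 thus had opposite listed signs in the models.

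The retinoid X receptor gene RXRA, whose product pairs with NR4A1 and NR4A2, was listed with the opposite sign to these partners. It was at -0.67 ± 0.19 in the authors' deposited table for KPC and at -0.24 ± 0.09 in that for PANC1 (Wald test adjusted p = 0.011 and 0.021). With recentring, 0 of the 2 partner receptors tested in PANC1 were called. RXRB was called in neither model.

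Factors and kinases upstream of the members were called with both signs in each model. Of 20 regulators tested in KPC, 1 was positive and 1 negative past the threshold, close to the 10.4% of all tested genes, and both are ribosomal S6 kinases that act below ERK. The authors' deposited table for KPC listed Rps6ka1 at 0.68 ± 0.23 and Rps6ka2 at -1.10 ± 0.38 (Wald test adjusted p = 0.040 and 0.043). After recentring, 0 were positive and 1 negative. In PANC1 both had the opposite sign in the authors' deposited table, at -0.50 ± 0.09 and 1.46 ± 0.15. In all, 8 of the 20 were positive and 7 negative in PANC1, beside 26.0% and 26.5% of all tested genes. With only genes at a level of 64 or more tested, 14 of 19 regulators and 8023 of all 11301 genes were called. The median of the 20 was 0.05 on the log2 scale. SRF itself was at 0.27 ± 0.08 in the authors' deposited table for PANC1 (Wald test adjusted p = 0.0029) and at -0.31 ± 0.24 in that for KPC (adjusted p = 0.40). The SRF partner gene ELK3 (1.00 ± 0.09) and CREB1 (0.76 ± 0.07) were positive in the authors' deposited table for PANC1, while the actin-regulated SRF cofactor gene MRTFB (-0.92 ± 0.07) and RPS6KA3 (-0.91 ± 0.06) were negative.

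Relatives of the members were mostly positive where they were called. Of 12 other EGR and KLF genes tested in KPC, 2 were positive and 0 negative, beside 5.77% and 4.60% of all tested genes. At an unadjusted p under 0.05 the Wald test gave 5 and 1, beside 5571 of 20050 tested genes with either sign. These were Klf11, a TGF-beta-inducible repressor gene, at 0.92 ± 0.27 and Klf2, a factor of quiescent endothelium and T cells, at 1.61 ± 0.55 in the authors' deposited table. After recentring 0 of the 12 were called in KPC. In PANC1 8 of 13 were positive and 2 negative, beside 26.0% and 26.5% of all tested genes. The authors' deposited table for PANC1 gave KLF11 at 0.86 ± 0.09, KLF3 at 0.84 ± 0.09 and KLF9 at 0.89 ± 0.18. Against these stood KLF13 at -0.70 ± 0.07 and KLF16 at -0.43 ± 0.12 in the authors' deposited table. Of the 3 other genes with IER names, Ier5l was negative in KPC, at -1.79 ± 0.54 with a level of 29.3 in the authors' deposited table. In KPC 2 of the 3 were negative after recentring, and again with the level trend subtracted, beside 2149 and 1133 of 20050 tested genes called. None of the 3 was called in PANC1. There 2 were positive and 0 negative at an unadjusted p under 0.05, beside 10057 of 17838 tested genes with either sign. After recentring 2 of the 3 were called positive in PANC1, and 1 with the trend subtracted, beside 9361 and 9252 of 17838 genes called.

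**Figure D4:**
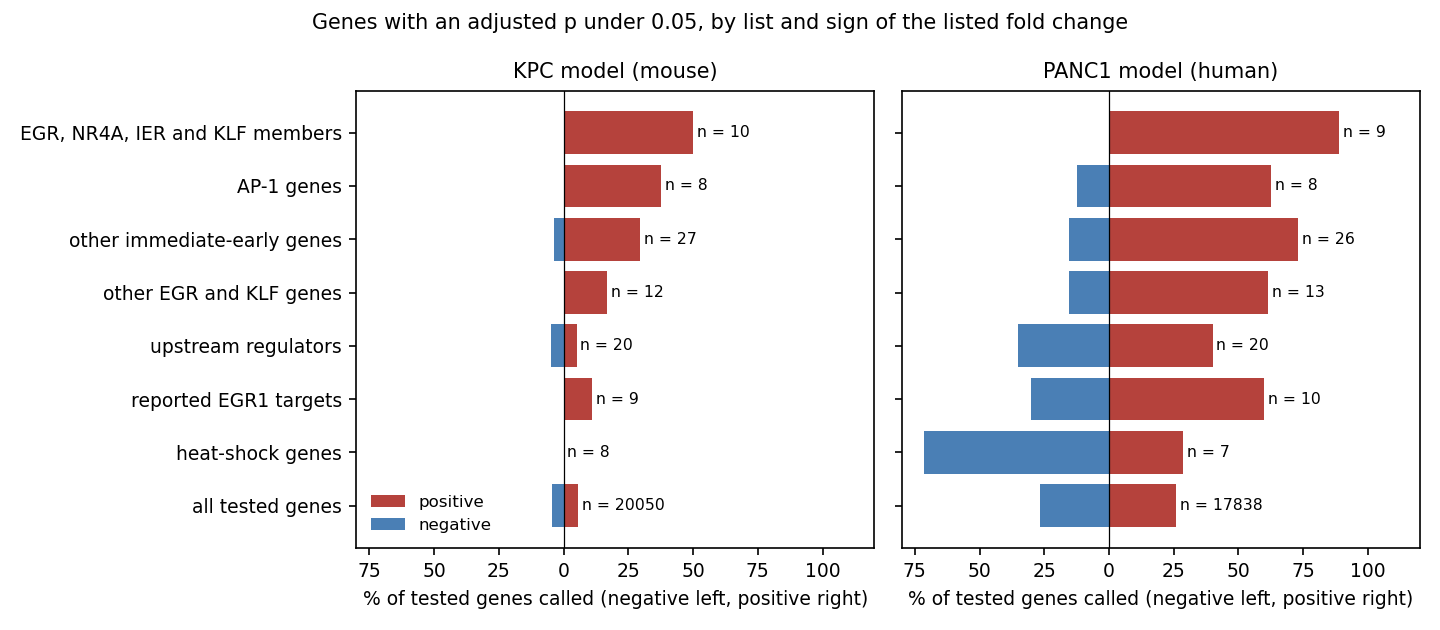
Share of the tested genes of each list called at an adjusted p under 0.05 (x axis, %), negative to the left and positive to the right, in each model, with all tested genes at the bottom. The members have 5 of 10 positive in KPC and 8 of 9 in PANC1, with no bar to the left, while the upstream regulators have bars to both sides.

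Other immediate-early genes were mostly uncalled in KPC and mostly positive in PANC1. In KPC 37.5% of the AP-1 genes and 29.6% of the further list below were called positive. Both shares were above the 5.77% of all tested genes and the 10.6% of those at a level of 64 or more. In PANC1 the shares were 62.5% and 73.1%, beside 26.0% of all tested genes and 32.7% at that level. Of the 8 AP-1 genes, which encode the FOS and JUN family and ATF3, 3 were positive in KPC and 0 negative, with no negative one at an unadjusted p under 0.05, and after recentring 2 were positive. In PANC1 5 were positive and 1 negative. The AP-1 genes called in KPC were Fos, Atf3 and Fosb, and in PANC1 the smallest adjusted p-values belonged to JUN, FOSL1 and FOSL2, at 2.27 ± 0.06, 2.20 ± 0.08 and 1.14 ± 0.07 in the authors' deposited table. JUND was negative there, at -0.62 ± 0.12 in the authors' deposited table. Of the AP-1 genes called positive, FOS alone was so in both models, at 1.60 ± 0.21 for KPC and 2.04 ± 0.42 for PANC1 in the authors' deposited table.

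A list of 27 further immediate-early genes had 8 positive and 1 negative in KPC, with a median of 0.09. That balance depends on scale, since 3 were positive and 3 negative after recentring, and again with the level trend subtracted. The kinase gene Sgk1 at 1.12 ± 0.18, the small MAF factor gene Mafk at 1.27 ± 0.24 and Csrnp1, a nuclear protein gene, at 1.58 ± 0.32 had the smallest adjusted p-values of the positive ones in the authors' deposited table, and the matricellular protein gene Ccn2 at -0.88 ± 0.17 was the negative one. In PANC1 19 of 26 were positive and 4 negative, with a median of 0.84. MAFF at 3.78 ± 0.12, SGK1 at 2.96 ± 0.10 and the survival gene MCL1 at 1.53 ± 0.06 had the smallest adjusted p-values of the positive ones there, against the polo-like kinase gene PLK2 at -1.84 ± 0.06, the mRNA decay factor gene ZFP36L1 at -0.98 ± 0.14 and the pseudokinase gene TRIB1 at -0.35 ± 0.09 in the authors' deposited table. CCN2 had the opposite listed sign to KPC, at 1.22 ± 0.06 in the authors' deposited table for PANC1.

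Since handling of tissue is known to induce early genes along with heat-shock genes, 8 heat-shock and chaperone genes were read beside them. In KPC 0 of 8 were called, beside 10.4% of all tested genes, and their median was 0.21. At an unadjusted p under 0.05 the Wald test gave 2 positive and 0 negative in KPC, beside 5571 of 20050 tested genes with either sign. In PANC1 2 of 7 were positive and 5 negative, with a median of -0.52, beside 26.0% and 26.5% of all tested genes called. All 7 had a level of 64 or more, and 8023 of the 11301 genes tested at that level were called with either sign. HSPA8 at -0.86 ± 0.06, HSPH1 at -0.84 ± 0.06 and HSP90AA1 at -0.40 ± 0.06 were negative, and the endoplasmic reticulum chaperone gene HSPA5 at 1.41 ± 0.06 and DNAJB1 at 0.25 ± 0.06 positive, in the authors' deposited table. The part of handling in the members' values was not tested.

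Host cells of the tumour can also carry early gene RNA, and in bulk samples fewer cells of a type and less RNA per cell cannot be told apart. In KPC, the summed levels were 154 for 12 leukocyte markers, 159 for 9 fibroblast markers and 141 for 8 endothelial markers, with no gene over 41.4 in the authors' deposited table. Over the 9, 9 and 8 of them that were tested, the medians were -1.32, -1.66 and -1.11 on the log2 scale. All tested genes under a level of 64 had a median of -1.13. Past the threshold 2, 1 and 0 of these markers were negative and 0 positive, beside 4.60% negative over all tested genes. After recentring 3, 3 and 2 were negative, beside 2149 of 20050 tested genes called with either sign. With the level trend subtracted 0 were called. Of the 12 hepatocyte markers 10 were listed and summed to 11333, of which the authors' deposited table gave 9009 to Apob and 2238 to Hnf4a, and 10.4 to the defining gene Alb. In PANC1, 7 of 12 leukocyte markers summed to 1156, of which the authors' deposited table gave 1103 to CD68, a lysosomal gene at 1.91 ± 0.07, and 2.26 to the defining gene PTPRC. The other sums there were 681 for 8 fibroblast, 147 for 4 hepatocyte and 23.2 for 3 endothelial markers. PANC1 reads were counted on a human build, and the species of the host is not given in the labels used here. RNA of a host that is not human would be counted only where its reads map to human genes. The PANC1 sums therefore cannot measure such host cells, whatever their number. Levels by group are not listed, and the part of host cells in the members' values was not tested.

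The labelled carcinoma identity was checked on 5 epithelial markers, all listed in both models. In KPC, the authors' deposited table had Krt18 at a level of 28158 and Krt8 at 10742, with log2 fold changes of -0.04 ± 0.15 and 0.02 ± 0.16. Krt19 was not called (0.32 ± 0.19), while Krt7 was positive at 1.18 ± 0.18 and Epcam, an epithelial adhesion gene, negative at -1.14 ± 0.28 in the authors' deposited table for KPC. In PANC1 the same 2 keratin genes had 37055 and 49702 and were negative in the authors' deposited table, at -3.35 ± 0.05 and -4.35 ± 0.06. KRT19 was negative there too, at -3.79 ± 0.05, but EPCAM was positive at 0.97 ± 0.10, and KRT7 was not called at 0.09 ± 0.26 with a level of 45.4 in the authors' deposited table for PANC1. So 3 of the 5 markers had the opposite listed sign to EGR1 past the threshold, and 1 had the same sign.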

How the data were processed

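RNA was sequenced from 12 samples in 4 groups of 3. Builds mm39 and hg19 and the tools STAR 2.7.6a, featureCounts 2.0.0, MultiQC 1.9 and DESeq2 1.24 are named per the submitters' processing notes; settings, annotation and model design are not given in the sources used here. The library kit does not mark strand. The signal, a mean normalised count over libraries, was deposited by the authors with no definition, and is read as counts divided by size factors. The authors deposited fold changes and SE on the log2 scale, the Wald score (their ratio), and a p-value and adjusted p-value per gene; a signed negative log10 p was not used. Of the genes listed, 86.4% in KPC and 98.1% in PANC1 had an adjusted p.

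Called means an adjusted p under 0.05 in the deposited table, adjusted over that whole table. Group levels quoted as approximate were computed from the mean and ratio of 3 and 3 libraries. Differences between models were divided by the root of the summed squared SE, with a two-sided normal p and Benjamini-Hochberg adjustment. Named genes were all members, NAB1, NAB2, SRF and up to 3 genes per list, sign and model with the smallest adjusted p among those called. Other genes set beside these (RXRB, FOS and CCN2 of PANC1, EGR4 and the marker genes singled out) were picked with their values known. One gene that this rule names is not reported here. The members and lists were chosen with earlier results of these data known. In GENCODE M21 no other gene overlapped a mouse member. Steps were tested on simulated fold changes with normal noise of the listed SE and no trend with level, so these assumptions were not tested. Alternatives are given in the closing section. Software was Python 3.11.15 with scipy 1.17.1, pandas 2.3.3, numpy 2.4.6 and, for figures, matplotlib 3.10.9.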

Additional observations from a re-analysis of the deposited data

Results flagged for a closer look

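Both tables compare a selected line and the line it came from, with the order of the groups not stated. The listed fold changes differed between the mouse and the human model for 6 of 9 members. This is by the z test of the difference, which takes the same order in both, and 34.9% of all 12777 symbols passed it. KPC minus PANC1 on the log2 scale was -3.14 for EGR1, -1.11 for NR4A1, -2.41 for NR4A2, -3.42 for NR4A3, -1.55 for IER3 and -0.84 for KLF6. All 6 had the more positive listed value in PANC1. With the PANC1 group order turned, IER3 no longer differed (adjusted p = 0.18 by the z test), while EGR2 and KLF4 did. The models differ in species, line, number of selection rounds and precision, with a median listed SE of 0.24 in KPC and 0.09 in PANC1 among genes at a level of 64 or more, and these cannot be told apart.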

How the results depend on the processing

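No paired analysis was possible because the tables hold no value per library, and for the same reason no replicate could be left out. Of the 5 members called in KPC, 3 were called after recentring and 5 of 10 became 3 of 7 when only genes at a level of 64 or more were tested. With a t distribution of 4 degrees of freedom 0 KPC members passed, as did no KPC gene, so that count does not separate strong from weak calls; in PANC1 it ended the calls of EGR2 and IER3 (adjusted p = 0.070 and 0.11). At 64 or more the PANC1 count went from 8 of 9 to 3 of 4 and the count of differences between models from 6 of 9 to 2 of 4, since fewer members were tested. Not called before or after, Nr4a3 of KPC went from -0.54 to 0.40 with the level trend subtracted, Ier2 from 0.07 to -0.15 recentred and -0.16 with the trend subtracted, and Klf6 from 0.17 to -0.044 and -0.035. Klf4 of KPC lost its call with the trend subtracted (adjusted p = 0.087); the cause was not tested. Egr3 of KPC and IER3 of PANC1 did not pass an adjusted p of 0.01. Egr1, Egr2 and Nr4a1 of KPC kept sign and call in every setting but the t distribution in which they were tested; Egr2 was not tested at 64 or more. Called regulators in KPC went from 2 to 0 at 0.01, to 1 recentred or with the trend subtracted; further immediate-early genes went from 9 to 5 at 0.01. With an absolute log2 fold change over 1 regulators went from 2 to 1 in KPC and 15 to 1 in PANC1, and further early genes from 9 to 3 and 23 to 13. Low counts limit EGR2, NR4A3 and IER3 of PANC1 and Egr3 and Nr4a3 of KPC. With the sign of the PANC1 fold changes turned, chosen after seeing the data because neither table states its group order, KPC minus PANC1 was 6.59 for EGR1, 5.47 for EGR2, 3.91 for NR4A1, 3.92 for NR4A2, 2.35 for NR4A3, 0.69 for IER2, 0.86 for IER3, 1.20 for KLF4 and 1.19 for KLF6; 7 of 9 passed, beside 30.0% of all symbols, and IER2 and IER3 did not.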
